A study of Homo sapiens with 6 samples.

Results

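HLA class II molecules carry peptides from endosomes to the cell surface and show them to CD4+ T cells. The genes described here are 8 of this system, HLA-DQB1, HLA-DOB, HLA-DMA, HLA-DMB, HLA-DRA, HLA-DPA1, CD74 and CIITA, measured in the lung adenocarcinoma cell line PC9 and its gefitinib-resistant derivative PC9/gef. They were read from every probe set annotated to exactly 1 of these symbols, which gave 22 of the 54613 probe sets of the array that are not controls and 8 of 19775 genes. The genes were chosen from a table in which the contrast between the lines was already known. Their own differences are therefore given as a description. Calls of the fit over all probe sets are stated for them, with no p, and nothing is read from those calls.

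PC9 cells are sensitive to gefitinib, which blocks the kinase of the EGF receptor. PC9/gef cells came from PC9 cells kept under rising concentrations of the drug. Total RNA of 3 PC9 and 3 PC9/gef samples was hybridized to Affymetrix U133 Plus 2.0 arrays, 1 array per sample, and the labels give those of each line as biological replicates. Both lines grew in RPMI-1640 with serum, PC9/gef is 1 resistant line from 1 parent, and the sources used here state neither whether it is a single clone nor whether gefitinib was in the medium at harvest. The background level was set at a mean of 2.65 on the deposited log2 scale, the 95th percentile of 135 probe sets of olfactory receptor genes. All values lay between 1.65 and 15.72, and about 54.4% of the probe sets on an array lay at or below the background level. Within a line, arrays correlated at r = 0.9992 or more, and across the lines at r = 0.9944 or less. Levels of different probe sets are not set against each other, because each has its own affinity. Since whole cultures were measured, a higher share of expressing cells and more RNA per cell cannot be told apart.

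The class II pathway runs from transcription to surface display. In professional antigen-presenting cells, and in epithelial cells exposed to interferon gamma, the coactivator CIITA docks on the RFX, CREB and NF-Y proteins that occupy the X and Y boxes of class II promoters, and so switches on the alpha and beta chains together with CD74. The chains pair as HLA-DR, HLA-DP and HLA-DQ, CD74 (the invariant chain) fills their groove and guides them to endosomes, cathepsins cut CD74 down, and HLA-DM exchanges the remaining fragment for a peptide under the restraint of HLA-DO.

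The 4 promoter stretches that follow show the arrangement through which these factors act, in the 3 described genes that have it in their RefSeq promoter window and in HLA-DRB1 for comparison. The windows are those of RefSeq on GRCh38.p14, 250 bases before to 50 bases after the gene start, and 6 of the 8 genes have one. Capitals mark the letters searched, GATGA for the core of an X box and ATTGG for a Y box. All 4 stretches lie on the minus strand and upstream of the gene start, at chr6:32666726-32666786 for HLA-DQB1, chr6:32817081-32817140 for HLA-DOB, chr6:32953157-32953218 for HLA-DMA and chr6:32589875-32589935 for HLA-DRB1.

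HLA-DQB1: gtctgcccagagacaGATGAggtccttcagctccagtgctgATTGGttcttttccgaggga
HLA-DOB: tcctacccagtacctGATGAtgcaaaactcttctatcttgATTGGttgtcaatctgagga
HLA-DMA: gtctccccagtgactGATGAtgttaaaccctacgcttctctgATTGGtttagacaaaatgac
HLA-DRB1: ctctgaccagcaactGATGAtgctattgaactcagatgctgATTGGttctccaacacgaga

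The letters and their spacing were written after these class II promoters had been looked at, so their presence here is partly built in. On either strand, 32% of 35116 promoter windows held the X letters and 34.6% held the Y letters, and neither set of letters contains the other. The X letters followed by the Y letters on the same strand, with a gap of 15 to 25 bases, occurred in 188 windows (0.535%), and 6 of these belong to class II genes. The gap between the X letters and the Y letters was 21 bases in HLA-DQB1, 20 bases in HLA-DOB and 22 bases in HLA-DMA. HLA-DMB and CD74 held both sets of letters in another arrangement, and of the 2 HLA-DPA1 windows 1 held the X letters alone and the other held neither. A match of letters is a description and not evidence of binding, and a missing match is not evidence that a gene lacks the boxes. The arrangement was present in HLA-DQB1 and HLA-DOB, which were over 2-fold higher in PC9/gef on 4 of 7 and 1 of 2 probe sets. It was also present in HLA-DMA, which differed little, and in HLA-DRB1 and HLA-DQB2, which were not above the background level in either line. HLA-DRB5, which had it too, has no probe set of its own. Any part of these letters in the differences between the lines was not tested.

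Among the 8 genes, HLA-DQB1 and HLA-DOB were higher in PC9/gef by more than 2-fold, on 4 of 7 and 1 of 2 probe sets. HLA-DMA and HLA-DMB were measurable in both lines with small differences. HLA-DRA, HLA-DPA1, CD74 and CIITA lay at background level in both lines on all of their probe sets. Of the 22 probe sets, 6 were above background level in PC9 and 8 in PC9/gef, and 14 were above it in neither. Over the whole array, 46.4% of the probe sets were above it in either line. The limma fit over all probe sets called 6 of the 22, 5 higher and 1 lower, where it called 16.6% of all probe sets and 7.61% as higher. A difference over 2-fold was seen for 5 of the 22, all higher, against 1.79% of all probe sets, and 0.95% of them higher. The arrays of the lines did not overlap for 13 of the 22, against 48.5% of all, and lay higher in PC9/gef for 8, against 12.4%. Nothing is read from these counts, because the contrast was known when the genes were chosen. The median log2 difference was -8.1e-05 over the 22 probe sets and -0.00065 over all probe sets.

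**Figure D1:**
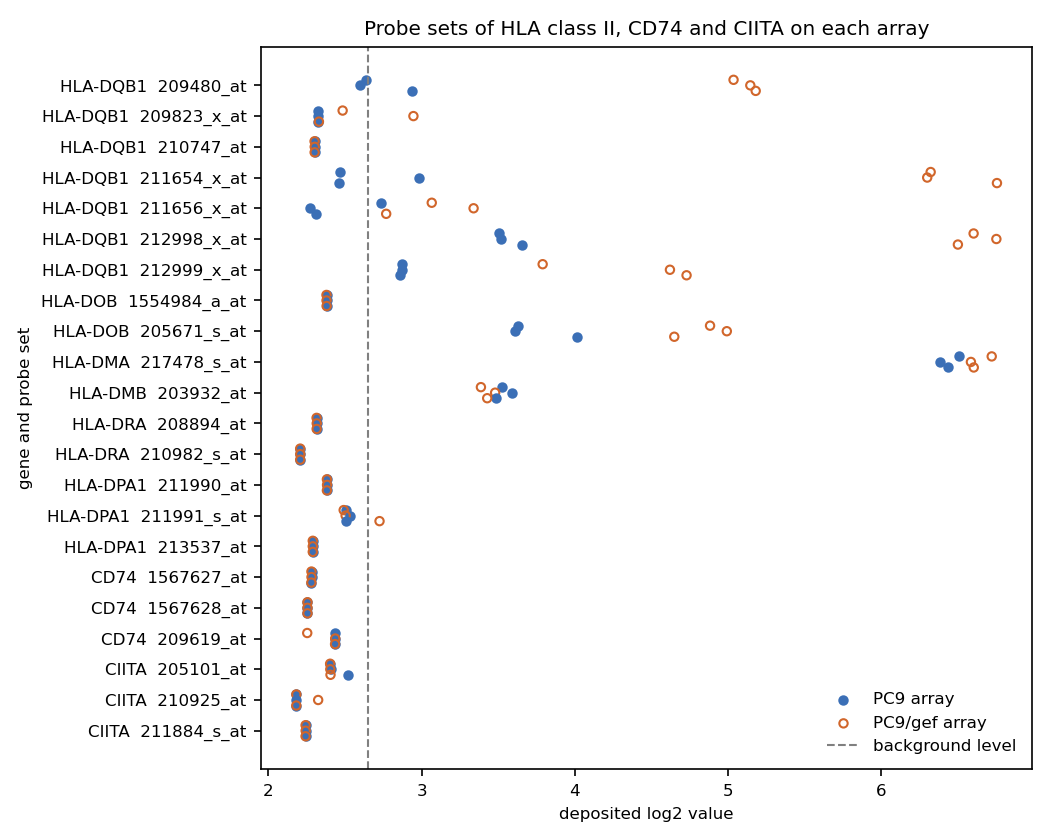
Deposited log2 value (horizontal axis) of each of the 22 probe sets (rows) on the 3 PC9 arrays (filled circles) and the 3 PC9/gef arrays (open circles), with the background level of 2.65 as a dashed line. The open circles lie to the right of the filled ones in 4 HLA-DQB1 rows and 1 HLA-DOB row by more than 2-fold, while the rows of HLA-DRA, CD74 and CIITA lie left of the line on every array.

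HLA-DQB1 encodes the beta chain of HLA-DQ. Its brightest probe set, 212998_x_at, read 3.51, 3.52 and 3.66 in PC9 and 6.60, 6.75 and 6.50 in PC9/gef on the log2 scale. The lowest PC9/gef array was far above the highest PC9 array. The means were 3.56 ± 0.084 and 6.62 ± 0.13 (SD, n = 3), a difference of 3.06 with a standard error of 0.084, or 8.32-fold. Ranked by this difference, HLA-DQB1 was 9th of 19775 genes, which is a description of a gene picked with that rank in view.

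The gene is covered by 7 probe sets, and they gave unlike differences. Probe set 211654_x_at read 2.47, 2.98 and 2.46 in PC9 against 6.32, 6.30 and 6.75 in PC9/gef. Its PC9 mean, 2.64, lay just under the background level, so the difference of 3.82 is given as at least 13.0-fold. Probe set 209480_at read 2.64, 2.60 and 2.94 in PC9 against 5.04, 5.15 and 5.18 in PC9/gef, a difference of 2.40 or 5.26-fold. In both, only 1 PC9 array was above the background level, whereas all 3 PC9/gef arrays were.

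Probe set 212999_x_at read 2.87, 2.87 and 2.86 in PC9 against 3.79, 4.62 and 4.73 in PC9/gef, 2.85-fold higher. PC9/gef replicate 1 was the lowest of its line but still above every PC9 array. Probe set 211656_x_at read 2.74, 2.27 and 2.31 in PC9 against 3.07, 3.34 and 2.77 in PC9/gef, at least 1.30-fold higher. Its groups nearly touched, and the fit did not call it. The 2 other probe sets lay at background level. Of these, 209823_x_at was at 2.33 on every PC9 array and read 2.49, 2.95 and 2.33 in PC9/gef, and 210747_at read 2.30 on all 6 arrays.

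The suffix _x_at marks probe sets whose probes may also match other genes, and 5 of the 7 HLA-DQB1 probe sets carry it. Class II beta genes are close relatives, so the array cannot fully separate them. The 209480_at difference of 2.40 comes from a probe set without that suffix. The other probe set without it, 210747_at, lay at background level with a difference of -0.00065. A further 6 probe sets are annotated to several class II genes at once, 3 of them including HLA-DQB1 beside HLA-DRB genes, and all 6 had means at background level in both lines. The closest to the level was 215193_x_at, at 2.49 in PC9 and 2.61 in PC9/gef. The level of HLA-DQB1 thus differed in size by probe set, from at least 13.0-fold to none measurable, and the median log2 difference over its 7 probe sets was 1.51.

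The pairing partner of this beta chain is the alpha chain HLA-DQA1. It read 2.48, 2.48 and 2.48 in PC9 and 2.48, 2.48 and 2.48 in PC9/gef, at background level on each array. A raised HLA-DQB1 signal was thus measured without a measurable HLA-DQA1 signal on the probe set read for that gene.

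**Figure D2:**
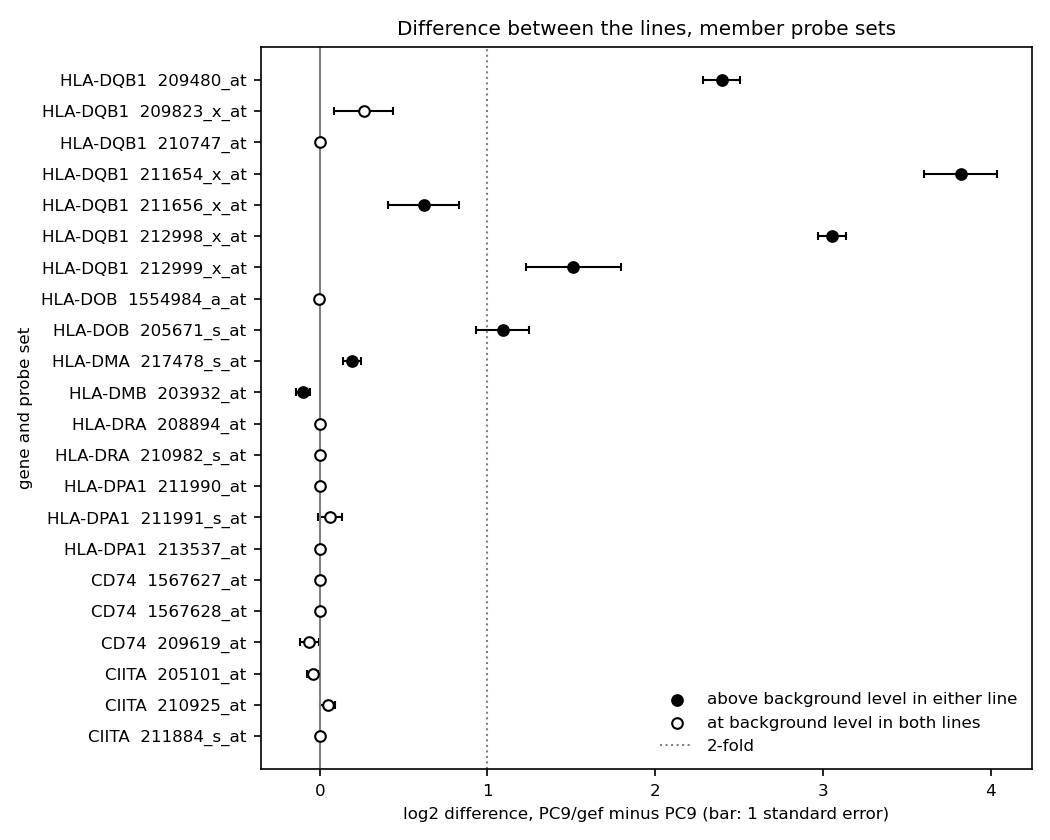
Log2 difference between the lines, PC9/gef minus PC9 (horizontal axis), for each of the 22 probe sets (rows), with bars of 1 standard error from the limma fit over 3 arrays per line. Filled circles are above the background level in either line. The 7 HLA-DQB1 rows run from -0.00065 to 3.82, and the largest absolute difference among rows at background level is 0.26.

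HLA-DOB encodes the beta chain of HLA-DO, which restrains HLA-DM and is known mainly from B cells and the thymus. Probe set 205671_s_at read 3.63, 3.61 and 4.01 in PC9 and 4.88, 4.99 and 4.65 in PC9/gef. All 3 PC9/gef arrays were above all PC9 arrays, the closest being PC9 replicate 3. The difference was 1.09 with a standard error of 0.16, or 2.13-fold, and the gene ranked 245th of 19775 by rise. The other probe set of the gene, 1554984_a_at, read 2.38 on every array. The fit called it lower with a difference of -0.0023 at background level, which is no measurable change in level. The call of 205671_s_at was lost without PC9 replicate 1, without PC9 replicate 2 and without PC9/gef replicate 1, and the difference then ranged from 1.02 to 1.22 over all fits with 1 array left out. HLA-DOA, the alpha chain of HLA-DO, had means of 3.11 in PC9 and 3.04 in PC9/gef, above background level and not called (adjusted p = 0.061 from limma).

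HLA-DMA and HLA-DMB are the chains of HLA-DM, the peptide exchanger of the endosome. HLA-DMA read 6.51, 6.39 and 6.43 in PC9 and 6.72, 6.58 and 6.60 in PC9/gef, a difference of 0.19. HLA-DMB read 3.52, 3.59 and 3.48 in PC9 and 3.39, 3.48 and 3.43 in PC9/gef, a difference of -0.10. For each gene the arrays of the lines did not overlap, with HLA-DMA higher and HLA-DMB lower in PC9/gef, and neither was called. HLA-DMB and the HLA-DQB1 probe set 211656_x_at were the nearest above the background level, 0.89 and 0.41 over it in their higher line. On the other side, the HLA-DQB1 probe set 209823_x_at was 0.061 under the level and the HLA-DPA1 probe set 211991_s_at was 0.074 under it.

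CIITA is the master coactivator of class II genes. Probe set 205101_at read 2.41, 2.41 and 2.52 in PC9 and 2.40, 2.40 and 2.41 in PC9/gef. Probe set 210925_at read 2.18, 2.18 and 2.18 in PC9 and 2.18, 2.33 and 2.18 in PC9/gef, and 211884_s_at read 2.24 on all 6 arrays. No CIITA probe set was above background level on any array.

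CD74, the invariant chain, is also the surface receptor for the cytokine MIF. Probe set 209619_at read 2.44, 2.44 and 2.44 in PC9 and 2.25, 2.44 and 2.44 in PC9/gef, and 1567627_at and 1567628_at stayed at 2.28 and 2.26 on all arrays. HLA-DRA, the alpha chain of HLA-DR, read 2.32 on every array with 208894_at and 2.21 with 210982_s_at. HLA-DPA1, the alpha chain of HLA-DP, read 2.38 with 211990_at and 2.29 with 213537_at on all arrays. Its probe set 211991_s_at read 2.51, 2.53 and 2.51 in PC9 and 2.49, 2.50 and 2.73 in PC9/gef. PC9/gef replicate 3 on that probe set was the 1 array on which any of the 4 genes passed the background level, and the array cannot show a difference below that level.

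Most other class II chains were not measurable either. Of 8 measured, 7 did not pass the background level in either line, and HLA-DOA was the 1 above it. They include HLA-DRB1, at 2.30 in both lines, and HLA-DQB2, at 2.19 and 2.24. HLA-DPB1, the partner of HLA-DPA1, read 2.44, 2.44 and 2.44 in PC9 and 2.44, 2.94 and 2.44 in PC9/gef, so that PC9/gef replicate 2 alone was above the level. HLA-DRB3, HLA-DRB5 and HLA-DQA2 have no probe set of their own and were not analysed here. No gene of the list was called by limma, where 31.5% of all genes were called. Of all genes, 14.4% were called higher and above background level and 13.4% lower and above it. Genes at background level count among all genes here, so both shares would be larger among genes above that level. At an unadjusted p under 0.05 the fit gave 2 genes of the list, of which 1 lay at background level. Without PC9/gef replicate 2, 1 gene of the list was called, as lower.

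The RNAs of the factors that act on class II promoters were above background level for the 11 of 12 that have a probe set of their own. Of these 11, 5 rose, 4 fell and 2 fell short of the threshold, against 14.4% and 13.4% of all genes. Those shares include genes at background level, while all 11 were above it. The median log2 difference was 0.03 for the 11 against -0.00065 over all genes. The counts fell to 2 or 3 higher and 2 or 3 lower in each fit that left out 1 of the 6 arrays, with 2 and 2 without PC9 replicate 3, PC9/gef replicate 1 or PC9/gef replicate 3. RFXAP, a subunit of the RFX complex on the X box, read 5.07, 4.97 and 5.10 in PC9 and 6.35, 6.04 and 6.26 in PC9/gef, 2.25-fold higher (adjusted p = 0.0016 from limma). With its probe sets averaged the difference fell from 1.17 to 0.58. KAT2B, a histone acetyltransferase that works with CIITA, read 7.58, 7.53 and 7.64 in PC9 and 6.14, 6.10 and 6.14 in PC9/gef, 2.74-fold lower (adjusted p = 0.00010 from limma). Both differences were larger than the spread of the arrays. The other RFX subunits, chosen after their values were seen, were higher by 0.19 for RFX5 (adjusted p = 0.042 from limma) and 0.21 for RFXANK (adjusted p = 0.0048). RFX5 was not called once any 1 of the 6 arrays was left out (adjusted p from 0.056 to 0.12), and its probe sets averaged gave a difference of 0.018.

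The route from interferon gamma to CIITA is the signal by which non-immune cells turn class II genes on. Of 9 measured genes, 3 rose, 1 fell and 5 fell short of the threshold, against 14.4% and 13.4% of all genes. Those shares include genes at background level, while all 9 were above it. None of the 9 was lower without PC9 replicate 1 or without PC9/gef replicate 1. PRDM1 (Blimp-1), a repressor known to silence CIITA in plasma cells, read 4.76, 4.87 and 4.83 in PC9 and 7.09, 6.77 and 6.92 in PC9/gef. It was 4.30-fold higher (adjusted p = 0.00034 from limma), and the average of its probe sets gave a log2 difference of 0.77 in place of 2.11. Of 16 genes that respond to interferon gamma, 3 rose, 1 fell, 4 fell short of the threshold and 8 were at background level. Without PC9 replicate 3 or without PC9/gef replicate 3, 2 rose and none fell. For all genes the shares were again 14.4% and 13.4%. GBP2, a guanylate-binding protein, rose by 0.94 (adjusted p = 0.0017), and IRF9, an interferon regulatory factor, rose by 0.65 (adjusted p = 0.0022). GBP1 fell by 0.55 (adjusted p = 0.022), a call lost without PC9 replicate 3 and without each PC9/gef replicate (adjusted p from 0.055 to 0.079), with its probe sets averaged (0.055) and without _x_at and _s_at probe sets (0.12).

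Genes of class II peptide processing and turnover were measurable throughout. Of 13 measured, 5 rose, 5 fell and 3 fell short of the threshold, against 14.4% and 13.4% of all genes, those at background level included. Those higher were 3 without PC9 replicate 1, PC9 replicate 2 or PC9/gef replicate 1, and 2 without PC9/gef replicate 3. CTSS (cathepsin S), which makes the last cuts in CD74, read 3.85, 3.90 and 4.38 in PC9 and 5.87, 5.81 and 5.77 in PC9/gef. It was 3.42-fold higher (adjusted p = 0.0023 from limma). Read from a probe set without the _s_at suffix, the difference was 0.85 and was not called (adjusted p = 0.077). CTSF (cathepsin F), able to process CD74 in macrophages, read 5.02, 4.95 and 5.61 in PC9 and 6.46, 6.32 and 6.26 in PC9/gef. Its 2.22-fold rise (adjusted p = 0.019) was lost without PC9 replicate 1, PC9 replicate 2, PC9/gef replicate 1 or PC9/gef replicate 3 (adjusted p from 0.060 to 0.070). Other cathepsins, named after their values were seen, were lower, CTSV by 0.78, CTSB by 0.57 and CTSH by 0.54 (adjusted p from 2.2e-05 to 0.00043 from limma) and CTSZ by 0.26 (adjusted p = 0.040), and CTSL differed by 0.0046. The cathepsins did not move one way, and CD74 lay at background level on all arrays.

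CD74 can hold MIF at the cell surface, with CD44 as the partner that signals. Of 5 measured genes of this group, 3 rose, none fell, and 2 were at background level, against 14.4% and 13.4% of all genes. CD44 was higher by 0.32 (adjusted p = 0.00083 from limma), ACKR3, a chemokine receptor that binds MIF, by 0.26 (adjusted p = 0.0021), and MIF itself by 0.16 (adjusted p = 0.0020). With probe sets averaged by gene, CD44 was higher by 0.086 and ACKR3 by 0.096. Of 8 T cell costimulation and adhesion genes, 1 rose, 3 fell, 1 fell short of the threshold and 3 were at background level. Without PC9 replicate 1 or PC9 replicate 2, none rose and 2 fell. For all genes the shares were 14.4% higher and 13.4% lower. ICAM1, which binds the integrin LFA-1 of T cells, read 7.41, 7.40 and 7.48 in PC9 and 5.43, 5.88 and 5.77 in PC9/gef, 3.33-fold lower (adjusted p = 0.0013 from limma).

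**Figure D3:**
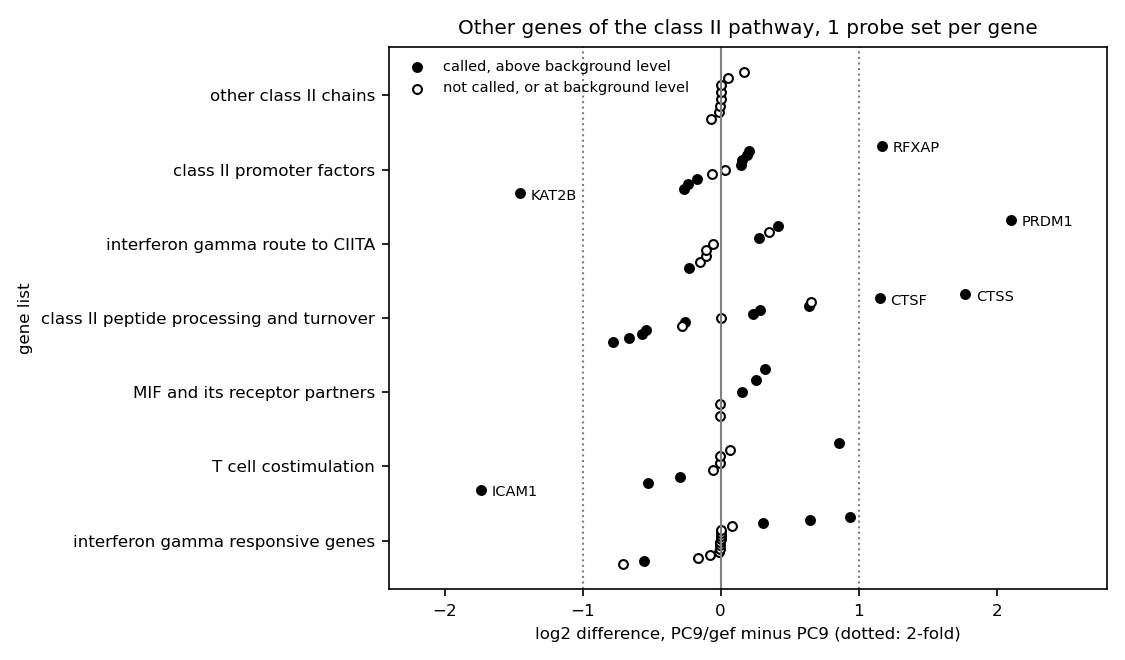
Log2 difference between the lines, PC9/gef minus PC9 (horizontal axis), of the genes of 7 lists around the class II pathway (rows), 1 probe set per gene, each spread vertically only for legibility. Filled circles passed the limma threshold and lay above the background level, dotted lines mark 2-fold, and names are given for called genes past them. The other class II chains gather near 0, while RFXAP, PRDM1, CTSS and CTSF lie right of the 2-fold line and KAT2B and ICAM1 lie left of it. The 8 described genes are not drawn.

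The class II genes lie side by side on chromosome 6 with genes of the class I pathway among them. In chromosomal order from NOTCH4 to RING1, 24 of 26 protein-coding genes had a probe set of their own, and 16 were above background level in either line. HLA-DQB1 stood between HLA-DQA1, at background level, and HLA-DQA2, without a probe set of its own. HLA-DOB stood directly before TAP2, PSMB8, TAP1 and PSMB9, which carry and cut peptides for class I and were all higher in PC9/gef, by 0.44, 0.99, 0.82 and 1.65 (adjusted p from 0.00016 to 0.0075 from limma). Apart from PSMB9, these 4 were named for their place next to HLA-DOB after their values were seen. Of the 18 measured genes of the stretch other than the 8 described, 6 rose, none fell, 6 above background level fell short of the threshold and the rest were at it, where 14.4% of all genes were called higher and above background level. The remaining risers were HSD17B8, an enzyme of steroid and fatty acid metabolism (0.87, adjusted p = 0.0032), and RING1, a Polycomb subunit (0.64, adjusted p = 0.00013). Of 12 genes of the flanks on both sides, these 2 rose, none fell, 6 fell short of the threshold and 4 were at background level. For all genes the shares were 14.4% higher and 13.4% lower.

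**Figure D4:**
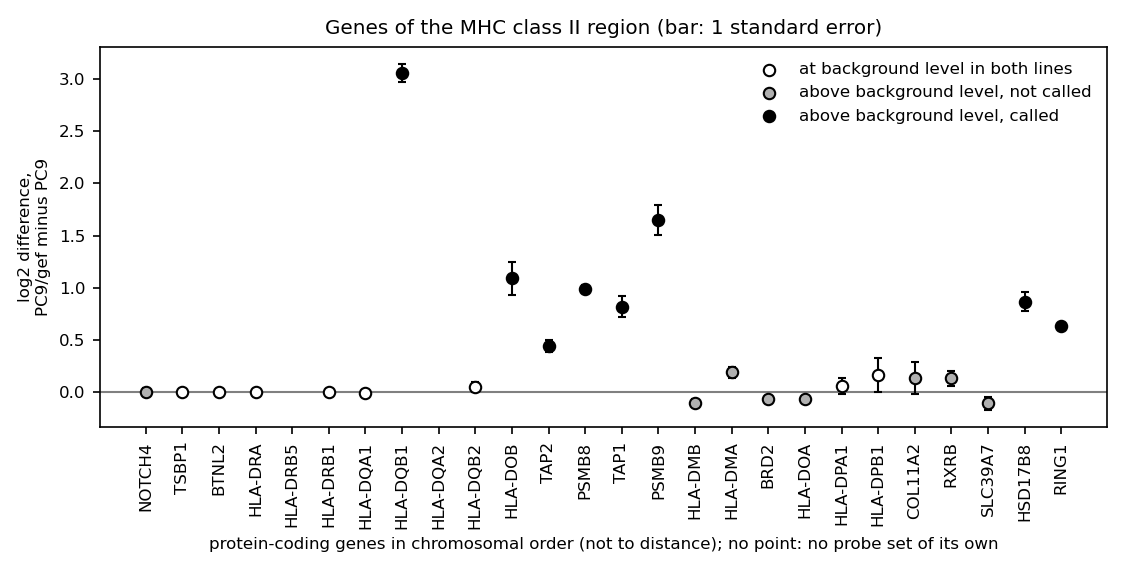
Log2 difference between the lines, PC9/gef minus PC9 (vertical axis, bars of 1 standard error over 3 arrays per line), for 26 protein-coding genes of the class II region in chromosomal order (horizontal axis, evenly spaced and not to distance). HLA-DQB1 at 3.06 stands alone among class II genes at background level, and HLA-DOB at 1.09 is followed by TAP2, PSMB8, TAP1 and PSMB9, the lowest of them at 0.44.

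The class I genes and their regulator NLRC5, a relative of CIITA that acts on class I promoters, were higher where CIITA was not measurable. Of 13 measured genes of class I and its neighbours in the region, 11 rose, none fell and 2 fell short of the threshold. Of all genes, those at background level included, 14.4% were called higher and above that level. Each fit without 1 array also gave 11 higher in this list. Of its 7 genes that keep a probe set without _x_at and _s_at probe sets, 4 were higher. NLRC5 was higher by 2.36, HLA-B by 2.04, HLA-F by 1.85, HLA-C by 1.61 and HLA-G by 1.43 (adjusted p from 3.2e-05 to 0.00036 from limma). HLA-B, HLA-F, HLA-C and HLA-G are all read from _x_at probe sets. For HLA-F the difference was -0.0024 without _x_at and _s_at probe sets. That value is not read as HLA-F being unchanged, since 1 of the 7 genes lay at background level in that setting. B2M, named after its values were seen, rose by 0.43, and by 0.10 without such probe sets (adjusted p = 0.28 from limma). Class I genes are close copies of each other, so part of their signal may be shared.

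Markers were read because class II genes are typical of leukocytes. Of 15 measured leukocyte markers, 12 were at background level, among them PTPRC (CD45), at 2.58 in both, and the B cell genes MS4A1 and CD79A, at 2.46 and 2.42 in both. ITGAM (CD11b) was higher by 1.16 (adjusted p = 0.043 from limma). That call was lost in each fit without 1 array other than PC9/gef replicate 2 (adjusted p from 0.054 to 0.13). The ITGAM difference was 0.018 without _x_at and _s_at probe sets. In that setting 13 of the 15 leukocyte markers, ITGAM among them, lay at background level. LYZ (lysozyme), which airway epithelium also makes, fell by 1.09 (adjusted p = 0.0010), and CSF1R passed the background level on PC9/gef replicate 2 alone. All 8 epithelial markers were far above background level, 2 higher and 3 lower in PC9/gef, against 14.4% and 13.4% of all genes. Those shares include genes at background level. KRT8 was lower by 0.33 (adjusted p = 0.00028 from limma), KRT7 higher by 0.29 (adjusted p = 0.0011) and MUC1 lower by 0.26 (adjusted p = 0.017). KRT7 differed by -0.00016 without _x_at and _s_at probe sets, a setting in which it lay at background level. The MUC1 call was lost without PC9 replicate 1, PC9 replicate 2 or PC9/gef replicate 3 (adjusted p from 0.064 to 0.069). Of 6 lung lineage markers, 5 were at background level, including NKX2-1 and NAPSA, which usually mark lung adenocarcinoma, and SFTPB read 4.31 and 4.33. Summed over the 15 leukocyte markers, the log2 values came to 43.2 to 43.7 on the PC9 arrays and 43.2 to 44.5 on the PC9/gef arrays. The 12 at background level made up 28.4 to 28.5 of this in PC9 and 28.3 to 28.4 in PC9/gef. Since ITGAM rose and LYZ fell, the sums cannot show whether leukocyte signal was unchanged. The part of the leukocyte markers in the HLA-DQB1 and HLA-DOB differences was not tested.

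The 5 genes whose 6-array profile, each centred on its own mean, lay nearest to that of HLA-DQB1 were NCAM1, SPARC, IFI16, FOXL2 and ZFPM2. Their root mean square distances from it were 0.11, 0.12, 0.15, 0.17 and 0.18 on the log2 scale over the 6 arrays. SPARC, for example, read 4.36, 4.26 and 4.33 in PC9 and 7.18, 7.24 and 7.24 in PC9/gef, and NCAM1 was at least 6.80-fold higher, its PC9 arrays being at background level, while its probe sets averaged gave a log2 difference of 0.80. For HLA-DOB the nearest were ULK2, CLYBL, NKD2, CTSF and NINJ2-AS1, at distances of 0.069 to 0.13. In such a list every gene shares the difference between the lines, so likeness over 6 arrays of 2 lines is mostly likeness in size of difference.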

How the data were processed

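RNA of 3 PC9 and 3 PC9/gef samples was measured on Affymetrix U133 Plus 2.0 arrays. The deposited values are on the log2 scale. The authors corrected, normalized and summarized them per probe set, by GC-RMA with GeneSpring GX according to the supplementary methods and by RMA according to the submitters' processing notes (version not given in the sources used here). They were used as deposited.

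Of 54675 probe sets, 62 controls were left out, of the others 41091 name 1 gene, 1801 name several and 11721 name none. The lines were compared with limma 3.58.1 under R 4.3.3 (lmFit and eBayes, no trend, not robust) over 54613 probe sets, with Benjamini-Hochberg adjustment over all of them and a threshold of 0.05. Each of 19775 genes was read from the probe set of highest mean value, with adjustment over genes. Where a line was at background level the fold is a lower bound, computed per array against the higher of that level and the value measured. The fit was tested on simulated data. P-values measure the spread between these samples, and precision is limited by their number. The smallest two-sided p of an exact permutation test with 3 arrays per line is 0.1.

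The described genes and all lists (other class II chains, promoter factors, interferon gamma route, interferon gamma responsive genes, peptide processing, MIF partners, costimulation, class I and neighbours, flanks, and leukocyte, epithelial and lung lineage markers) were chosen with earlier results of these data known. The text names every described gene and, in each list (the other class II chains and lung lineage markers had none called above background level), called genes over 2-fold or else up to 3 with the largest change, and the 5 nearest profiles of HLA-DQB1 and of HLA-DOB. Replicate numbers were not used as pairs, since the deviations of same-numbered samples correlated at -0.024, 0.016 and 0.046. Promoter sequences are from RefSeq GRCh38.p14, and gene order is from a RefSeq table. Python 3.11.15 and matplotlib 3.10.9 drew the figures.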

Additional observations from a re-analysis of the deposited data

How the results depend on the processing

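The deposited arrays already had nearly the same distribution, with sorted values within 0.012 of their mean. Quantile normalization and median centring could therefore change little. They moved no count and no direction among the described genes, and shifted the median over all probe sets by 0. With the replicate number as a block, other class II pathway genes called went from 23 to 13 (8 higher, 5 lower) and all genes called from 6236 to 3530. The HLA-DOB probe set 205671_s_at and the HLA-DQB1 probe set 212999_x_at were not called under the block, and HLA-DMA was. Of 63 called genes of the lists and of the nearest profiles, 21 lost their call under the block, among them CTSF, GBP1, ITGAM, HSD17B8, RFXANK, CREB1, SMARCA4 and MARCHF8, and 3 of 6 samples correlated best with their own number.

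Without _x_at and _s_at probe sets, 2 described probe sets were above background level and 2 were called (1 of them higher and above that level), the HLA-DQB1 difference was 2.40, and 13 pathway genes were called (7 higher, 6 lower). In that setting SMARCA4 turned to -0.0015, MARCHF8 to -0.085, HLA-F to -0.0024, KRT7 to -0.00016 and ULK2 to -0.00081. There 2 of 9 promoter factors, 1 of 7 class I genes and neighbours and 1 of 3 epithelial markers lay at background level in both lines. None of these 3 lists had a gene at that level in the main setting. A sign at background level shows no change of direction. With probe sets averaged by gene, 15 pathway genes were called (6 lower), the HLA-DQB1 difference was 1.67 and CREB1 turned to -0.083. With the 99th percentile of the olfactory receptor probe sets (6.67) as background level, 0 described probe sets were above it. Counted by 2-fold in place of the test, 5 pathway genes (4 higher, 1 lower) and 570 of all genes differed. The causes were not tested.

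Leaving out 1 array in turn gave 3 to 5 described probe sets called (3 to 4 higher and above background level), 8 to 9 above background level, 15 to 18 pathway genes called (7 to 10 higher, 7 to 8 lower), 4238 to 6893 genes called and an HLA-DQB1 difference of 2.99 to 3.12. The lowest count of 3 came without PC9 replicate 1 and without PC9 replicate 2, and the HLA-DQB1 probe sets 209480_at, 211654_x_at and 212998_x_at were called in all 6 fits. Among pathway genes the lowest count, 15, came without PC9/gef replicate 3. Signal over background limits the description of HLA-DRA, HLA-DPA1, CD74 and CIITA, for which a change below the background level would not be seen.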
